A study of Homo sapiens with 12 samples.

Results

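Translation initiation factors (gene symbols starting with EIF) and elongation factors (symbols starting with EEF) were followed across 4 groups of Tet21N cells. The members were all annotated symbols with those prefixes except the eIF2 kinases (EIF2AK symbols), kept where a probe had a detection score above 0.95 on 3 or more of 12 arrays, and each gene was represented by its brightest probe. This gave 60 genes, of which 49 were EIF and 11 EEF symbols, out of 64 annotated symbols and out of 12178 genes tested in all. EEFSEC, EIF1AD and EIF4E3 were annotated but not detected on enough arrays, and 1 further symbol was also below the minimum.

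Tet21N is a cloned human neuroblastoma cell line that carries an N-Myc transgene which doxycycline switches off. Cells received non-specific siRNA (siControl) or MondoA siRNA (siMondoA), each either without doxycycline (Myc on) or with doxycycline at 1 microgram/ml (Myc off), which gives siControl Myc on, siMondoA Myc on, siControl Myc off and siMondoA Myc off. Each group had 3 arrays of total RNA, and culture with or without the drug lasted 3 days. All groups share the transgene, the clone and a transfection, and an effect of doxycycline cannot be told apart from an effect of the N-Myc transgene. Whether the replicates came from different cultures is not in the labels, and the p-values reflect the scatter of these arrays, which may be technical.

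Initiation factors bring the small ribosomal subunit, the initiator tRNA and the mRNA together. The eIF2 complex carries the initiator tRNA and is recharged with GTP by eIF2B, eIF3 is the large scaffold on the small subunit, and eIF4E, eIF4G and eIF4A bind the mRNA cap and unwind the leader, with the eIF4E-binding proteins as inhibitors of the cap step. In elongation, eEF1A delivers aminoacyl-tRNAs, the other eEF1 subunits recharge eEF1A with GTP, and eEF2 moves the ribosome along the mRNA. Myc proteins are known to raise the capacity for protein synthesis in many cell types, and MondoA is a related transcription factor that responds to glucose-derived signals and binds DNA with the Myc-family partner Mlx.

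Between 18521 and 20726 of 47313 probes with values were detected per array, and arrays correlated at 0.986 to 0.992 within a group and at 0.945 to 0.973 between groups. The probe for MLXIP, which encodes MondoA, was detected on 1 array and those for MYCN on 0, so neither target could be read. TXNIP, a well-known MondoA target, averaged 11.31 ± 0.05 (SD, n = 3) in siControl and 7.96 ± 0.16 in siMondoA cells with Myc on, and 11.09 ± 0.14 and 6.67 ± 0.10 with Myc off, in normalized log2 intensity. The endogenous MYC gene averaged 6.15 ± 0.23 (SD, n = 3) in siControl and 7.93 ± 0.18 in siMondoA cells with Myc on, and 9.10 ± 0.05 and 8.93 ± 0.08 with Myc off. Of 7 adrenergic neuroblastoma markers 3 were detected on 3 or more arrays and 2 (DBH and TH) on none. Those 3 were HAND2, on 12 arrays with group means of 8.87 to 9.54, GATA3 on 11 and CHGB on 9. All 8 mesenchymal markers were detected on 3 or more arrays. Of 5 markers of other cells PTPRC, CD3E and CDH5 were detected on none, PECAM1 on 4 arrays and EPCAM on 5. Mesenchymal markers moved with the groups but in different directions: in the order siControl Myc on, siMondoA Myc on, siControl Myc off and siMondoA Myc off, COL1A1 averaged 11.82, 10.11, 12.92 and 10.87. In the same order SPARC averaged 10.52, 9.42, 12.31 and 9.80, and SNAI2 6.50, 8.07, 7.85 and 9.01. Over the 4 groups the means of VIM, PRRX1, YAP1, CD44 and FN1 ranged over 13.08 to 13.59, 10.80 to 11.46, 8.57 to 8.79, 12.03 to 12.74 and 5.02 to 5.40. The part of these markers in the results below was not tested.

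MondoA knockdown moved translation factors in both directions in both Myc states. With Myc on, 10 of 60 factors were higher and 5 lower in siMondoA than in siControl cells at a limma adjusted p below 0.05, beside 12.4% of all genes called higher and 12.5% lower. With Myc off, 19 were higher and 5 lower, beside 21.8% and 22% of all genes. The median log2 change of the factors was 0.09 with Myc on and 0.17 with Myc off, and that of all genes 0.03 in each. Groups of 3 arrays did not overlap for 18 higher and 8 lower factors with Myc on (all genes 21.1% and 19.3%) and for 22 higher and 10 lower with Myc off (all genes 26.6% and 25.7%). The counts depended on scaling: when arrays were scaled to a common median instead of quantile-normalized, 19 factors were higher and 0 lower with Myc on, and 12 higher and 7 lower with Myc off. That scaling moved the median of all genes from 0.03 to 0.19 with Myc on and to -0.06 with Myc off. The count of 10 factors higher with Myc on fell to 3, 5 and 4 without siControl Myc on replicates 1, 2 and 3 and to 6 and 5 without siMondoA Myc on replicates 1 and 2. That of 5 lower fell to 2, 3, 3 and 3 without siControl Myc on replicates 1 and 3 and siMondoA Myc on replicates 2 and 3.

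The 2 knockdown comparisons drew their group means from separate arrays. Their calls shared the same estimate of each gene's spread, from all 12 arrays, so they are not independent and are set side by side as a description. Higher in both were 7 factors (EEF1AKMT1, EEF2KMT, EIF1AX, EIF2B1, EIF3J, EIF4E2 and EIF4EBP2), and lower in both were 4 (EEF1A2, EIF2D, EIF4A2 and EIF4G1), which is 11.7% and 6.67% of the factors beside 8.45% and 9.87% of all genes. The number called in opposite directions was 0, beside 0.509% of all genes. Across the 60 factors the changes in the 2 Myc states correlated at r = 0.71, and across all 12178 genes at 0.694, which describes these genes and is no test.

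**Figure D1:**
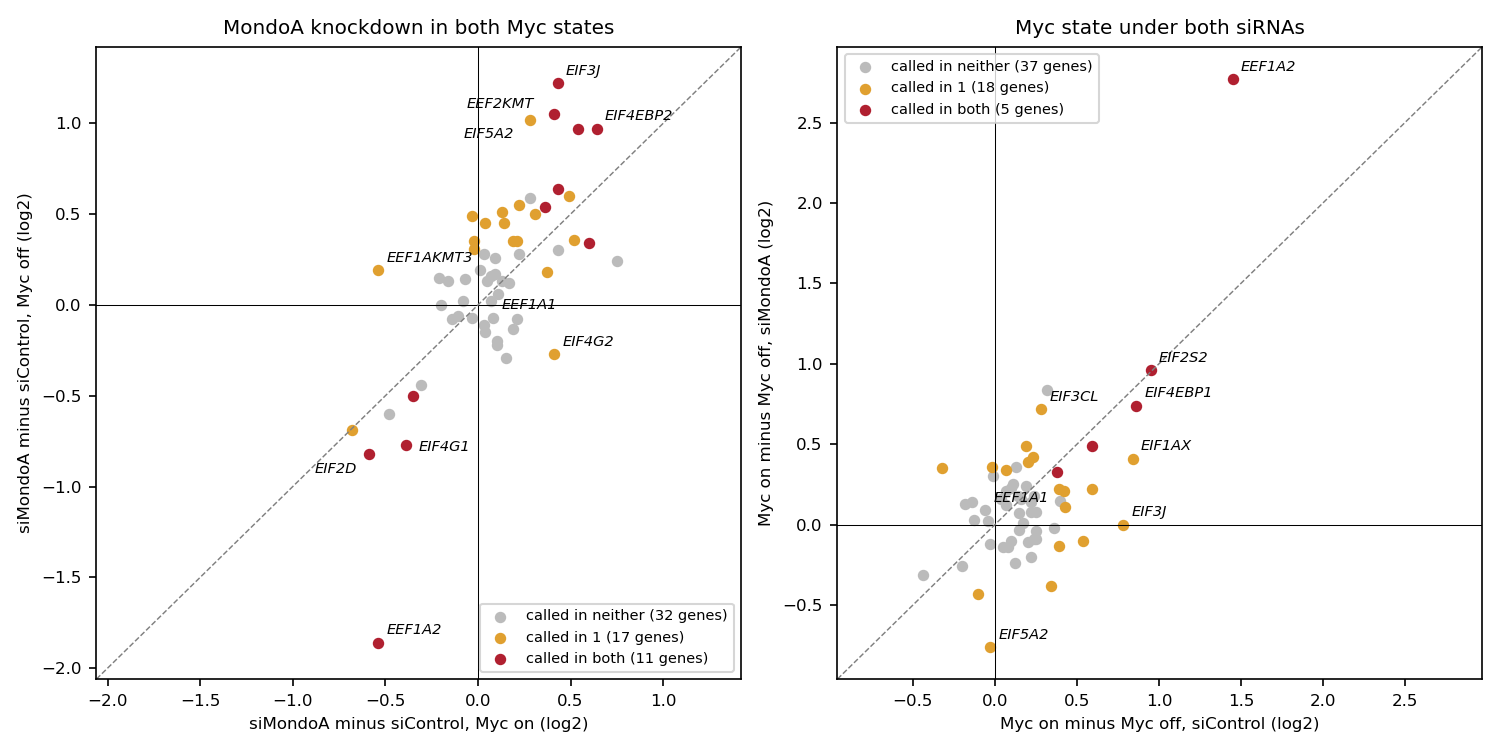
Log2 change of each of 60 translation factors (points). Left, siMondoA minus siControl with Myc on (x axis) and Myc off (y axis); right, Myc on minus Myc off with siControl (x axis) and siMondoA (y axis). Colours mark how many of the 2 comparisons called the gene by limma, and the dashed line marks equal change. EEF1A2 lies far from the other factors, at -0.54 and -1.86 on the left and at 1.45 and 2.77 on the right.

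Myc state moved the factors mainly upward. In siControl cells 13 of 60 factors were higher with Myc on than with Myc off and 0 lower by limma, beside 14.6% and 16.3% of all genes (30.9% in either direction). At an unadjusted p below 0.05 the lower count was 1 (EIF4G2). At the adjusted threshold the lower count with median scaling was 1, EIF4EBP3 (-0.6, limma adjusted p = 0.036), and EIF4G2 was not called. Without background correction the lower count at the adjusted threshold was also 1. In siMondoA cells 12 were higher and 3 lower, beside 14.9% and 15.1% of all genes. The median log2 change of the factors was 0.19 with siControl and 0.14 with siMondoA, against -0.01 and -0.02 for all genes. A positive change was found for 47 and 40 of 60 factors, beside 5982 and 5842 of 12178 genes. Groups did not overlap for 30 higher and 2 lower factors with siControl (all genes 21.5% and 23.6%) and for 21 higher and 3 lower with siMondoA (all genes 20.5% and 21.3%). With median scaling the calls were 8 higher and 1 lower with siControl and 17 higher and 1 lower with siMondoA, while the median of all genes moved to -0.11 and 0.13. In siMondoA cells the count of 12 higher fell to 7 without siMondoA Myc on replicate 2 or siMondoA Myc off replicate 3. That of 3 lower fell to 1 without siMondoA Myc on replicate 1 or 2 or siMondoA Myc off replicate 1. The lower count with siControl rose to 1 without siMondoA Myc on replicate 3.

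Higher with Myc on under both siRNAs were 5 factors: EEF1A2, EIF2A, EIF2S1, EIF2S2 and EIF4EBP1, or 8.33% beside 7.32% of all genes. Changes under the 2 siRNAs correlated at r = 0.627 across the 60 factors and at 0.423 across the 59 without EEF1A2, beside 0.539 for all genes, again as a description. Of the 60 factors 25 (41.7%) were called in no pairwise comparison, among them EEF1A1, EEF1G, EEF2, EIF4A1, EIF5A and EIF6, and EEF1A2 alone (1.67%) was called in all 4, beside 35.8% and 5.02% of all genes.

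**Figure D2:**
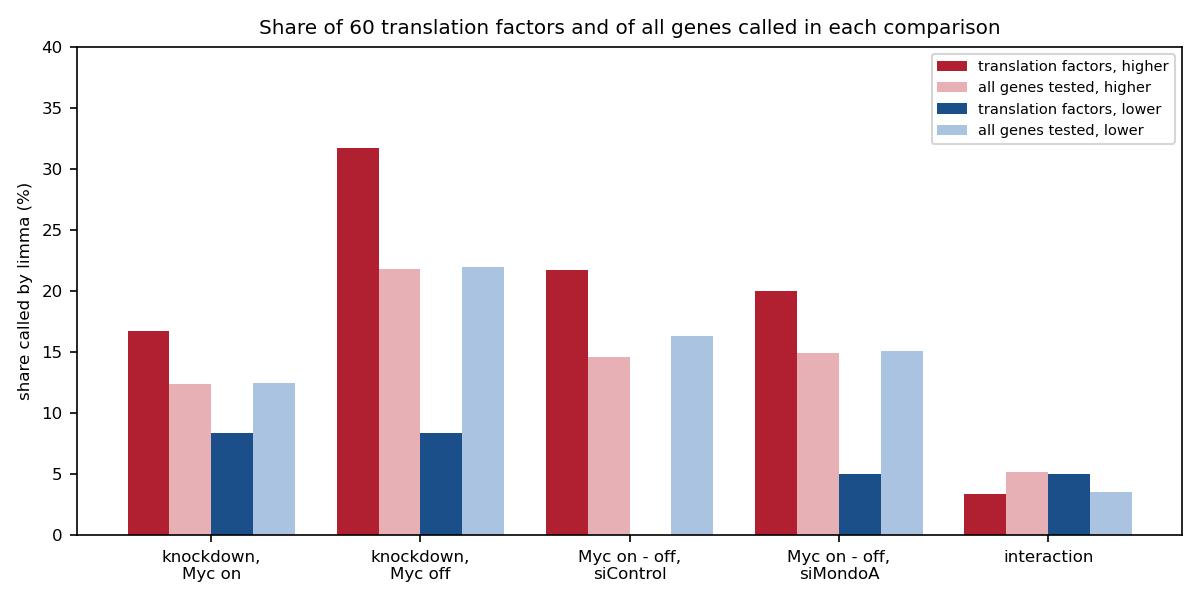
Share of the 60 translation factors and of all 12178 genes called higher or lower by limma (y axis, percent) in each of 4 pairwise comparisons and in the interaction (x axis). The share of factors called lower is 0 for Myc on against Myc off with siControl, where 16.3% of all genes were called lower.

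Promoters were read for the E-box CACGTG, the sequence that Myc with Max and MondoA with Mlx are known to bind. The motif is its own reverse complement, so a match on one strand is a match on both. RefSeq promoters (GRCh38.p14), 250 bases before to 50 after the start, were at hand for 46 of the 60 factors, and 12 of them (26.1%) held the motif, beside 10.3% of the promoters of tested genes and 7.45% of all promoters in the table. The 12 were EEF2K, EIF1B, EIF2B3, EIF3F, EIF3K, EIF4A3, EIF4B, EIF4E, EIF4EBP3, EIF4G1, EIF4H and EIF5A2. Among the 8 factors with a promoter that were higher with Myc on in siControl cells the motif was in 1 (12.5%), EIF4B, and among the other 38 in 11 (28.9%). A match describes the letters in this window and is not a binding site, and EEF1A2 had no entry in the table. The 250 bases before the start are shown for the 3 factors with 2 matches, for EIF4B and for EEF1A1, which has none and was called in no comparison. Each is printed 5′ to 3′ on the gene's strand with the E-box in capitals.
EIF4G1, chr3:184314356-184314605, plus strand: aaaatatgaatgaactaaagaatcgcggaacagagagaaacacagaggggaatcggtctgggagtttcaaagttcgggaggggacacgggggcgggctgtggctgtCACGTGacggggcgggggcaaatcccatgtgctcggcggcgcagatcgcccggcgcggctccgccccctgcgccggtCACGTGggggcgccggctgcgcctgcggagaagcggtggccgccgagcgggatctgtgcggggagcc
EIF4E, chr4:98929134-98929383, minus strand: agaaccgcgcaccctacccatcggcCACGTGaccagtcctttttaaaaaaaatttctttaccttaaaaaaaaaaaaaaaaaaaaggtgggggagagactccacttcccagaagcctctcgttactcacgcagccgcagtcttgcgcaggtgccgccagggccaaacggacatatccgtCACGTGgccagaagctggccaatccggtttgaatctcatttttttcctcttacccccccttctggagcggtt
EIF5A2, chr3:170908638-170908887, minus strand: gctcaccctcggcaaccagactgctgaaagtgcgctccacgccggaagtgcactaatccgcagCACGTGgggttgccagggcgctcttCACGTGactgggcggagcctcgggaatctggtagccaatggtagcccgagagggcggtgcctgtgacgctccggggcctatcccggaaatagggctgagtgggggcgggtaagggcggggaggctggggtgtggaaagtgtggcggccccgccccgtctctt
EIF4B, chr12:53006206-53006455, plus strand: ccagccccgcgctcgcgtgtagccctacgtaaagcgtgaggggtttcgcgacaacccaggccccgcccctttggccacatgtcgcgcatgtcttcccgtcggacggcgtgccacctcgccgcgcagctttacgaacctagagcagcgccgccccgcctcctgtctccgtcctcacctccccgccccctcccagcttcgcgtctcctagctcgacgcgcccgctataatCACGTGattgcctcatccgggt
EEF1A1, chr6:73521033-73521282, minus strand: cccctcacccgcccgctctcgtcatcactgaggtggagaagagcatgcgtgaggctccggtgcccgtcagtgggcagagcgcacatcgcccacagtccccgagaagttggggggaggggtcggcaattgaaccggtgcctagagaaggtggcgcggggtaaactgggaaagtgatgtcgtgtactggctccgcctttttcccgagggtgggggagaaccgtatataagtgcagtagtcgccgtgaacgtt
With Myc on against Myc off in siControl cells EIF4G1 changed by -0.02 ± 0.12 (SE), EIF4E by 0.32 ± 0.35 and EIF5A2 by -0.03 ± 0.17, and limma called none of them, whereas it called EIF4B, at 0.59 ± 0.11; differences between these genes were not tested.

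Of 5 start codon and subunit-joining factors 2 rose with knockdown in Myc-on cells and 4 in Myc-off cells, beside 12.4% and 21.8% of all genes. EIF1AX alone was higher with Myc on in siControl and EIF5B alone in siMondoA cells, beside 14.6% and 14.9% of all genes. None was called lower in a pairwise comparison. Of all genes 12.5% and 22% were lower with knockdown in Myc-on and Myc-off cells. With Myc on, 16.3% were lower in siControl and 15.1% in siMondoA cells. EIF1AX, which encodes eIF1A, a factor that helps the scanning subunit find the start codon, read 8.96, 8.73 and 9.07 in siControl and 9.23, 9.61 and 9.55 in siMondoA cells with Myc on, in normalized log2 intensity. With Myc off it read 8.43, 7.87 and 7.95 in siControl and 9.16, 9.26 and 8.75 in siMondoA cells. The siControl Myc-off arrays were the lowest and did not overlap with any other group. The knockdown raised EIF1AX by 0.97 ± 0.18 (SE, n = 3 a group, limma adjusted p = 0.00081) with Myc off and by 0.54 ± 0.18 (adjusted p = 0.043) with Myc on. The Myc-on call was lost when any one of the siControl Myc on arrays, siMondoA Myc on replicate 2 or 3, siControl Myc off replicate 3 or siMondoA Myc off replicate 1 was left out, with no filter on dim probes, and with the mean of its probes, the dimmer of which changed by 0.09. In siControl cells Myc on was higher than Myc off by 0.84 ± 0.18 (limma adjusted p = 0.0038).

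EIF5, the GTPase-activating factor for eIF2, rose with knockdown in Myc-off cells by 0.51 ± 0.13 (SE, limma adjusted p = 0.0071, lost with median scaling). Its other detected probes were dim, averaging 5.13, 5.37 and 5.94, and went the other way in Myc-off cells. They gave -0.52 (limma adjusted p = 0.038, over all probes), -0.25 and -0.63. EIF1B, a paralogue of EIF1, rose there by 0.31 ± 0.11 (lost with median scaling and without siControl Myc off replicate 1 or 3 or siMondoA Myc off replicate 1). EIF1, which guards start codon choice, rose there by 0.35 ± 0.12 (adjusted p = 0.029), a call lost without siControl Myc off replicate 1 or 2 or siMondoA Myc off replicate 1 or 3. EIF5B, the factor that joins the ribosomal subunits, differed in its calls: it rose with knockdown in Myc-on cells by 0.37 ± 0.10 (adjusted p = 0.019, lost without siControl Myc on replicate 1 or 3 or siMondoA Myc on replicate 1 or 2) and was not called in Myc-off cells, where it changed by 0.18 ± 0.10. In siMondoA cells EIF5B was higher with Myc on by 0.42 ± 0.10 (adjusted p = 0.008). The difference between its 2 knockdown changes was 0.19 ± 0.14 and was not called.

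Of the eIF2 subunits, EIF2S1 and EIF2S2 were higher with Myc on and EIF2S3 was not called for Myc state. Of the 10 genes of eIF2, eIF2B and the related factors eIF2A and eIF2D, 4 were higher with Myc on in siControl and 3 in siMondoA cells, beside 14.6% and 14.9% of all genes. None of the 10 was called lower in those comparisons, beside 16.3% and 15.1% of all genes. EIF2S2, the beta subunit of eIF2, read 7.24, 7.11 and 7.53 in siControl and 6.87, 6.59 and 6.38 in siMondoA cells with Myc on. On the Myc-off arrays EIF2S2 read 6.58, 6.21 and 6.25 in siControl and 5.76, 6.15 and 5.06 in siMondoA cells, the last array being the lowest of the 12. Within each siRNA the Myc-on arrays lay above the Myc-off arrays without overlap. The change was 0.95 ± 0.24 (SE, limma adjusted p = 0.0091) with siControl and 0.96 ± 0.24 (adjusted p = 0.0088) with siMondoA. Knockdown gave -0.69 ± 0.24 (adjusted p = 0.032) with Myc off, a call lost without siControl Myc off replicate 1 or 3 or siMondoA Myc off replicate 3, with no filter on dim probes and when only those 2 groups were fitted. In Myc-on cells it was -0.68 ± 0.24 (adjusted p = 0.053, not called).

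EIF2S1, the alpha subunit whose phosphorylation halts initiation under stress, read 8.48, 8.19 and 8.35 with Myc on and 7.65, 7.77 and 7.83 with Myc off in siControl cells, with no overlap. It was 0.59 ± 0.14 (SE) higher with Myc on (limma adjusted p = 0.0077, lost with median scaling), and 0.49 ± 0.14 higher in siMondoA cells (adjusted p = 0.021, lost without siMondoA Myc on replicate 2 or siMondoA Myc off replicate 1 and when only those 2 groups were fitted). EIF2A, an alternative carrier of initiator tRNA, was higher by 0.38 ± 0.10 (0.26 and not called with median scaling) and by 0.33 ± 0.10 (lost without siMondoA Myc on replicate 1 or 2 or siMondoA Myc off replicate 3). EIF2S3, the gamma subunit of eIF2, was not called for Myc state but rose with knockdown in Myc-off cells by 0.35 ± 0.09 (adjusted p = 0.0076, lost with median scaling). With the main normalization EIF2S2 was thus called lower and EIF2S3 higher after knockdown with Myc off. Neither call held under all the alternatives given above, and EIF2S2 was detected on 2 of the 3 siMondoA Myc off arrays.

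EIF2D, a factor that can deliver tRNA and recycle ribosomes without eIF2, fell with knockdown in both Myc states. It read 9.51, 9.61 and 9.43 in siControl and 9.23, 8.96 and 8.59 in siMondoA cells with Myc on, and 9.43, 9.36 and 9.38 against 8.59, 8.44 and 8.67 with Myc off. The groups did not overlap in either Myc state. The changes were -0.59 ± 0.14 (SE, limma adjusted p = 0.010, lost with median scaling) and -0.82 ± 0.14 (adjusted p = 0.00056). Myc state was not called under either siRNA with the main normalization. With median scaling EIF2D was called higher with Myc on in siMondoA cells (0.56, limma adjusted p = 0.0078). Of the eIF2B exchange factor genes, EIF2B1 rose with knockdown by 0.36 ± 0.12 with Myc on (lost when any one siControl Myc on array or siMondoA Myc on replicate 1 or 2 was left out) and 0.54 ± 0.12 with Myc off. EIF2B2 rose by 0.52 ± 0.14 with Myc on (lost without siControl Myc on replicate 2 or 3 or siMondoA Myc on replicate 3). EIF2B3 rose by 0.45 ± 0.16 with Myc off (0.32 and not called with median scaling, and lost when any one siMondoA Myc off array or siControl Myc off replicate 1 or 2 was left out). EIF2B5 was higher with Myc on in siControl cells by 0.42 ± 0.13 (0.29 and not called with median scaling, and lost without siControl Myc on replicate 1 or 2 or siControl Myc off replicate 1 or 3). EIF2B4 was called in no pairwise comparison with the main normalization. With median scaling it was called higher after knockdown with Myc on (0.41, limma adjusted p = 0.049).

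Most eIF3 subunits moved little. Of 14 genes 1 rose with knockdown with Myc on and 3 with Myc off. Higher with Myc on were 3 in siControl and 2 in siMondoA cells. In this order these are 7.14%, 21.4%, 21.4% and 14.3%, beside 12.4%, 21.8%, 14.6% and 14.9% of all genes. None was called lower in a pairwise comparison, beside 12.5%, 22%, 16.3% and 15.1% of all genes. In siControl cells all 14 changes with Myc on were positive, with a median of 0.23, beside 5982 of 12178 genes and a median of -0.01. EIF3J, a loosely held subunit that contacts the mRNA channel of the ribosome, was the exception in size. It read 8.27, 8.56 and 8.51 in siControl and 8.89, 8.72 and 9.04 in siMondoA cells with Myc on. The Myc-off values were 7.55, 7.72 and 7.74 in siControl and 8.90, 8.88 and 8.88 in siMondoA cells. The siControl Myc-off arrays were the lowest, and under siMondoA the Myc-on and Myc-off arrays overlapped. Knockdown raised EIF3J by 0.43 ± 0.12 (SE, limma adjusted p = 0.018) with Myc on and by 1.22 ± 0.12 (adjusted p = 6.2e-06) with Myc off. The Myc-on call was lost without siControl Myc on replicate 1 or siMondoA Myc on replicate 3 and when only those 2 groups were fitted. The knockdown changes differed by -0.78 ± 0.17 (interaction, adjusted p = 0.014, lost with median scaling), and Myc on exceeded Myc off by 0.78 ± 0.12 (adjusted p = 0.0004) with siControl and by 0.00 ± 0.12 with siMondoA.

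Other eIF3 calls were smaller. EIF3E rose with knockdown in Myc-off cells by 0.49 ± 0.12 (SE, limma adjusted p = 0.0055) and was higher with Myc on in siControl cells by 0.39 ± 0.12 (lost when any one siControl Myc on array or siControl Myc off replicate 2 or 3 was left out). EIF3H rose with knockdown in Myc-off cells by 0.55 ± 0.10 (adjusted p = 0.00085). EIF3M was higher with Myc on in siControl cells by 0.39 ± 0.10 (lost with median scaling). In siMondoA cells EIF3B, a core scaffold subunit, was higher with Myc on by 0.49 ± 0.13 (adjusted p = 0.011) and EIF3CL by 0.72 ± 0.17 (adjusted p = 0.0066). EIF3CL and EIF3C are near-identical copies, so their probes may read both, and EIF3C changed by 0.23 ± 0.15 in the same comparison without a call. The remaining 8 subunits (EIF3A, EIF3C, EIF3D, EIF3F, EIF3G, EIF3I, EIF3K and EIF3L) were called in no pairwise comparison with the main normalization. With median scaling EIF3C (0.52) and EIF3I (0.43) were called higher after knockdown with Myc on. EIF3I was then also called higher with Myc on in siMondoA cells (0.39).

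**Figure D3:**
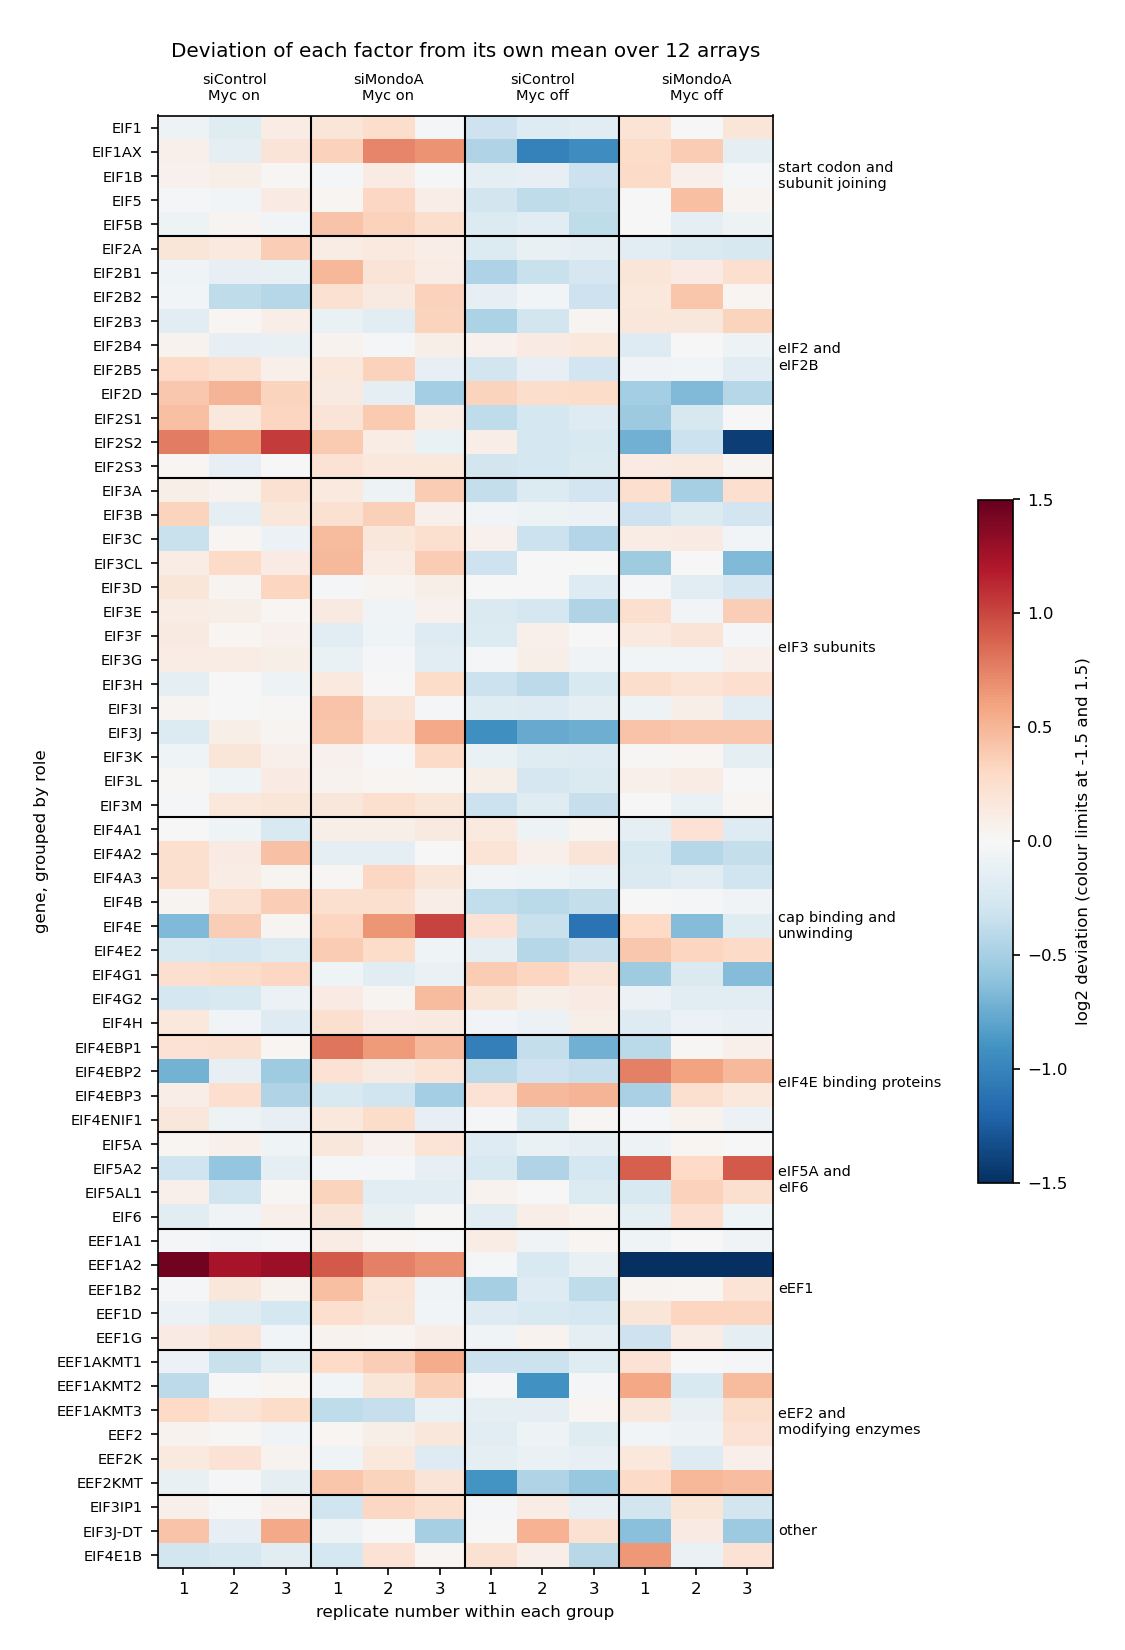
Deviation of each of 60 factors from its own mean over 12 arrays (colour, log2 units, limits at -1.5 and 1.5), with genes in rows by role and arrays in columns by group and replicate. EEF1A2 has the strongest colours of any row, from above its mean on all 6 Myc-on arrays to beyond the lower colour limit on all 3 siMondoA Myc-off arrays, while EEF1A1 stays near white.

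Cap-binding and unwinding factors moved in both directions, and some paralogues had different calls. Of 9 genes 2 rose and 2 fell with knockdown in each Myc state, or 22.2% each way. Of all genes 12.4% rose and 12.5% fell with Myc on, and 21.8% rose and 22% fell with Myc off. The scaffold EIF4G1, which links the cap to eIF3, read 11.26, 11.28 and 11.32 in siControl and 10.94, 10.84 and 10.90 in siMondoA cells with Myc on. In Myc-off cells the values were 11.38, 11.33 and 11.20 against 10.47, 10.79 and 10.35. All 6 siMondoA arrays lay below all 6 siControl arrays. Knockdown lowered EIF4G1 by -0.77 ± 0.12 (SE, limma adjusted p = 0.00023) with Myc off, where its other bright probe gave -0.74. With Myc on the change was -0.39 ± 0.12 (adjusted p = 0.030), a call lost when any one array of those 2 groups was left out, with median scaling and with the mean of its 2 probes. In siMondoA cells EIF4G1 was higher with Myc on by 0.36 ± 0.12 (adjusted p = 0.039), a call lost when siControl Myc on replicate 2, any one of the siMondoA Myc on arrays or siMondoA Myc off replicate 1 or 3 was left out and when only those 2 groups were fitted.

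EIF4A2, one of a pair of closely related cap helicases, fell with knockdown by -0.50 ± 0.11 (SE, limma adjusted p = 0.003) with Myc off and by -0.35 ± 0.11 (adjusted p = 0.034) with Myc on. The second call was lost with median scaling, when only those 2 groups were fitted and without siControl Myc on replicate 1 or 3 or siMondoA Myc on replicate 1 or 2. Its paralogue EIF4A1 ran from 13.68 to 14.13 over the 12 arrays and was called in no comparison, with pairwise changes between -0.14 and 0.21. The related helicase EIF4A3, a core protein of the exon junction complex, was higher with Myc on in siMondoA cells by 0.39 ± 0.11 (lost without siMondoA Myc on replicate 2 or siMondoA Myc off replicate 3). EIF4B, a helper of the helicase, read 11.90, 12.09 and 12.23 with Myc on and 11.50, 11.46 and 11.51 with Myc off in siControl cells, with no overlap, and was 0.59 ± 0.11 higher with Myc on (adjusted p = 0.0013). With Myc off it rose with knockdown by 0.35 ± 0.11 (adjusted p = 0.017, lost with median scaling and without siMondoA Myc off replicate 1).

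EIF4E2, a cap-binding paralogue that acts as a repressor of translation, rose with knockdown by 0.43 ± 0.13 (SE, limma adjusted p = 0.025) with Myc on and 0.64 ± 0.13 (adjusted p = 0.0012) with Myc off. The Myc-on call was lost when any one of the siControl Myc on arrays or siMondoA Myc on replicate 1 or 2 was left out and when only those 2 groups were fitted. The cap-binding protein gene EIF4E itself was dim, at 4.55 to 6.67 on its brighter probe, detected on 9 of 12 arrays, and with an SE of 0.35 no comparison was called. In siMondoA cells it changed by 0.84 with Myc on (limma adjusted p = 0.085). That change was called with median scaling, without background correction, with the mean of its probes and when only those 2 groups were fitted. A dimmer probe of EIF4E gave 0.52 for Myc on against off with siControl (limma adjusted p = 0.011, over all probes) and 0.40 for knockdown with Myc off (adjusted p = 0.029). EIF4G2, a relative of EIF4G1 that lacks the eIF4E-binding part, read 12.09, 12.12 and 12.27 in siControl and 12.47, 12.39 and 12.83 in siMondoA cells with Myc on, and 12.53, 12.44 and 12.47 against 12.26, 12.18 and 12.18 with Myc off. The groups did not overlap in either Myc state, in opposite orders. Its knockdown change was 0.41 ± 0.12 (adjusted p = 0.028, lost without siControl Myc on replicate 1 or 2 or siMondoA Myc on replicate 3) with Myc on and -0.27 ± 0.12 (adjusted p = 0.092, not called) with Myc off, and the difference of 0.68 ± 0.17 passed the interaction test (adjusted p = 0.030). The interaction call was lost when siControl Myc on replicate 1 or 2, any one of the siControl Myc off arrays or siMondoA Myc off replicate 1 or 3 was left out. The other 2 probes gave differences of 0.44 and 1.18.

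The eIF4E-binding proteins, which compete with eIF4G for eIF4E, did not move as a set. EIF4EBP1 read 7.37, 7.38 and 7.18 in siControl and 7.96, 7.79 and 7.64 in siMondoA cells with Myc on, and 6.13, 6.80 and 6.43 against 6.75, 7.17 and 7.23 with Myc off. It was higher with Myc on by 0.86 ± 0.18 (SE, limma adjusted p = 0.0027) with siControl and by 0.74 ± 0.18 (adjusted p = 0.0067) with siMondoA. Knockdown gave 0.60 ± 0.18 with Myc off (adjusted p = 0.014, lost with median scaling and without siControl Myc off replicate 1 or siMondoA Myc off replicate 3). With Myc on it gave 0.49 ± 0.18 (adjusted p = 0.061, not called), and the groups did not overlap. That change was called with median scaling (0.68, limma adjusted p = 0.0099), without background correction and when only those 2 groups were fitted. It was also called without siControl Myc off replicate 1 or 2 or siMondoA Myc off replicate 1.

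EIF4EBP2 differed by siRNA in both Myc states. It read 7.31, 7.90 and 7.49 in siControl and 8.24, 8.15 and 8.23 in siMondoA cells with Myc on, and 7.62, 7.71 and 7.67 against 8.78, 8.62 and 8.51 with Myc off. All 6 siMondoA arrays lay above all 6 siControl arrays. The changes were 0.64 ± 0.14 (SE, limma adjusted p = 0.0052) and 0.97 ± 0.14 (adjusted p = 0.00013), and both calls remained without each single array. In siMondoA cells EIF4EBP2 was lower with Myc on by -0.43 ± 0.14 (adjusted p = 0.035), a call lost with median scaling and when any one of the siMondoA Myc on arrays or siMondoA Myc off replicate 1 or 2 was left out. With siControl it changed by -0.10 ± 0.14. EIF4EBP3 and the eIF4E transporter gene EIF4ENIF1 were called in no comparison with the main normalization. With median scaling EIF4EBP3 was called lower after knockdown in Myc-off cells (-0.66, limma adjusted p = 0.015). It was then also called lower with Myc on in siControl cells (-0.6, adjusted p = 0.036).

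**Figure D4:**
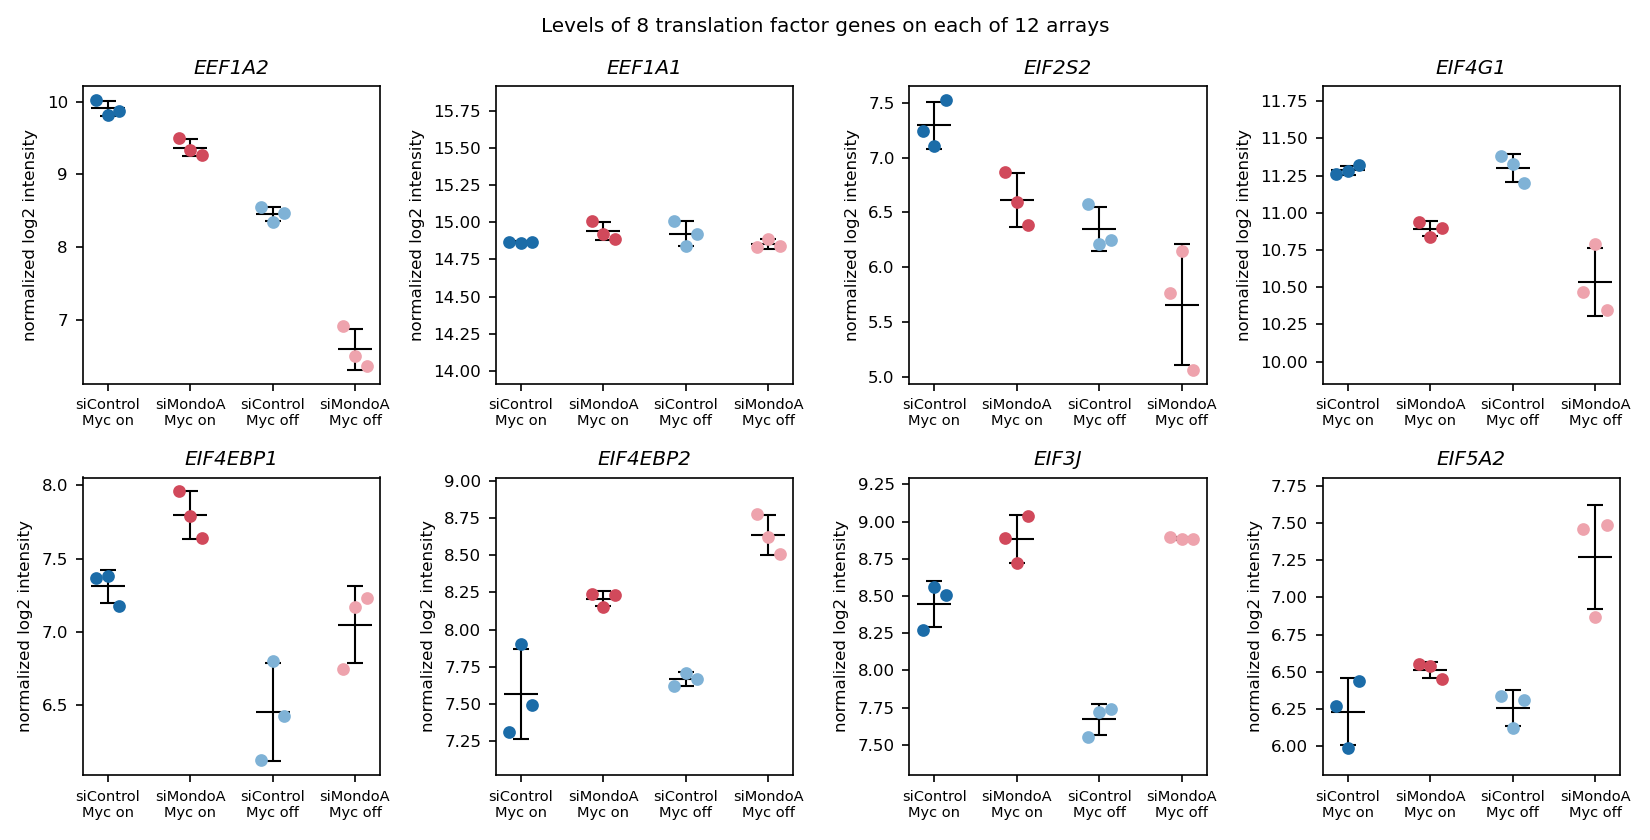
Normalized log2 intensity (y axes, each at least 2 log2 units tall) of 8 translation factor genes on each of 12 arrays, by group (x axes). Points are arrays, the long bar is the group mean and the whiskers are 1 SD of 3 arrays. EEF1A2 steps down from siControl Myc on to siMondoA Myc off, EEF1A1 is level, and EIF4G1 and EIF4EBP2 separate by siRNA.

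Of the eIF5A and eIF6 genes, EIF5A2 alone was called. It encodes a paralogue of eIF5A, the factor that relieves ribosomes stalled at proline stretches. EIF5A2 read 6.27, 5.99 and 6.44 in siControl and 6.55, 6.54 and 6.45 in siMondoA cells with Myc on, and 6.34, 6.12 and 6.31 against 7.46, 6.87 and 7.49 with Myc off. The 3 siMondoA Myc-off arrays were the highest and overlapped with no other group. Knockdown raised it by 1.02 ± 0.17 (SE, limma adjusted p = 0.00035) with Myc off and by 0.28 ± 0.17 (not called) with Myc on, and in siMondoA cells it was lower with Myc on by -0.76 ± 0.17 (adjusted p = 0.0046). The interaction of -0.73 ± 0.24 was not called (adjusted p = 0.077) with all arrays and was called without siMondoA Myc off replicate 2 and without background correction. EIF5A ran from 11.58 to 11.98 with changes of 0.13 to 0.16 and no call, and EIF5AL1 is a near-identical copy of EIF5A. EIF6, which keeps the large subunit from joining too early, changed by -0.04 to 0.07.

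The elongation factor eEF1A has 2 genes in the set, and they behaved differently. EEF1A2, the form typical of neurons and muscle, read 10.03, 9.82 and 9.87 in siControl and 9.50, 9.34 and 9.27 in siMondoA cells with Myc on. The Myc-off arrays gave 8.55, 8.35 and 8.47 in siControl and 6.91, 6.50 and 6.37 in siMondoA cells. The 4 groups did not overlap, in the order siControl Myc on, siMondoA Myc on, siControl Myc off and siMondoA Myc off. Its raw intensity was 954.2 to 999.8 in the first group and 182.3 to 201.3 in the last, and it was detected on all 12 arrays.

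EEF1A2 was higher with Myc on by 1.45 ± 0.14 (SE, limma adjusted p = 1.6e-05) in siControl and by 2.77 ± 0.14 (adjusted p = 3.4e-07) in siMondoA cells, ranks 21 and 1 from the top of 12178 genes. Knockdown lowered it by -1.86 ± 0.14 (adjusted p = 9.4e-07) with Myc off and by -0.54 ± 0.14 (adjusted p = 0.015) with Myc on. The Myc-on call was lost with median scaling and without siControl Myc on replicate 1 or siMondoA Myc on replicate 3. The knockdown changes differed by 1.32 ± 0.20 (interaction, adjusted p = 0.002), and no single array removed that call. By absolute size EEF1A2 ranked 1 of 60 factors in every comparison except knockdown with Myc on, where it ranked 7. A single probe measured the gene.

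EEF1A1, the ubiquitous form, read between 14.83 and 15.01 on all 12 arrays. Its changes were 0.08 ± 0.09, -0.07 ± 0.09, -0.06 ± 0.09 and 0.09 ± 0.09 (SE) for knockdown with Myc on, knockdown with Myc off, Myc with siControl and Myc with siMondoA, and none was called. On each array it ranked between 1 and 8 by intensity, near the top of the scale, and how far that limits its changes was not tested. The other 2 bright probes of EEF1A1 were also not called, whereas a dim probe averaging 7.99 gave -0.53, -0.04, 0.82 and 0.32 in the same order; EEF1A1 has many processed pseudogenes, so what that probe reads is uncertain.

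The difference between the 2 genes, EEF1A2 minus EEF1A1 in log2 intensity, was compared only between groups, since levels of different probes cannot be set against each other. Averaged over the 2 siRNAs, it was 2.10 higher with Myc on than Myc off (exact stratified permutation test, two-sided, p = 0.005, adjusted over 6 tests 0.015). Averaged over the Myc states, the difference between siMondoA and siControl was -1.20 (exact p = 0.005, adjusted 0.015). Here 0.005 is the smallest p that 400 relabellings allow. Within a single pair of groups the differences were -0.61 and -1.79 for knockdown with Myc on and off and 1.51 and 2.69 for Myc with siControl and siMondoA. Each had an exact permutation p of 0.1, the smallest that 3 arrays against 3 allow. Because EEF1A1 itself moved by no more than 0.09 in any pair and lies near the top of the scale, these values are nearly those of EEF1A2 alone and are no separate evidence about EEF1A1. The pair was also chosen with earlier results of these data known.

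The other eEF1 genes changed less. EEF1B2, an exchange factor subunit, read 13.34, 13.53 and 13.41 with Myc on and 12.86, 13.16 and 12.98 with Myc off in siControl cells, with no overlap. It was 0.43 ± 0.14 (SE, limma adjusted p = 0.031) higher with Myc on, a call lost without siControl Myc on replicate 2 or 3 or siControl Myc off replicate 1 or 3. With Myc off it rose with knockdown by 0.45 ± 0.14 (adjusted p = 0.016, lost without siControl Myc off replicate 1 or siMondoA Myc off replicate 3). EEF1D, another exchange factor subunit, rose with knockdown in Myc-off cells by 0.50 ± 0.11 (adjusted p = 0.0023), and with Myc on it changed by 0.31 ± 0.11 without a call (adjusted p = 0.051). That change was called with median scaling (0.57, limma adjusted p = 0.008) and without background correction. It was also called when detection on all 3 arrays of a group was required and without siMondoA Myc on replicate 3. EEF1G was called in no comparison, with changes of -0.07 to 0.18.

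EEF2 itself was level while its methyltransferase gene moved. EEF2 ran from 13.08 to 13.47 with changes of 0.07 to 0.17, and EEF2K, the kinase that inhibits eEF2, changed by -0.16 to 0.25; neither was called. EEF2KMT, which encodes an eEF2 lysine methyltransferase, read 7.85, 7.93 and 7.82 in siControl and 8.38, 8.30 and 8.16 in siMondoA cells with Myc on, and 7.07, 7.51 and 7.39 against 8.25, 8.46 and 8.43 with Myc off. The siControl Myc-off arrays were the lowest. Knockdown raised EEF2KMT by 1.05 ± 0.13 (SE, limma adjusted p = 3e-05) with Myc off and by 0.41 ± 0.13 (adjusted p = 0.031, lost when any one of the siControl Myc on arrays or siMondoA Myc on replicate 1 or 2 was left out) with Myc on. Myc on exceeded Myc off by 0.54 ± 0.13 (adjusted p = 0.0058; 0.35 and not called with median scaling) with siControl and by -0.10 ± 0.13 (not called) with siMondoA. The probe used for EEF2KMT averaged 7.96. Of its other probes, one averaging 7.71 gave 0.82 and 1.11 for the 2 knockdown changes. Another, averaging 7.92, gave -0.07 and 0.28, with no call over all probes.

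The eEF1A methyltransferase genes differed among themselves. EEF1AKMT1 read 7.31, 7.07 and 7.22 in siControl and 7.70, 7.77 and 7.95 in siMondoA cells with Myc on, without overlap, and rose with knockdown by 0.60 ± 0.12 (SE, limma adjusted p = 0.0025), a call that remained without each single array. In Myc-off cells it rose by 0.34 ± 0.12 (adjusted p = 0.032), which became 0.14 and lost its call with median scaling and lost it without siControl Myc off replicate 1 or 2 or siMondoA Myc off replicate 1. EEF1AKMT3 went down with knockdown in Myc-on cells, from 8.99, 8.90 and 8.97 to 8.31, 8.35 and 8.59, a change of -0.54 ± 0.12 (adjusted p = 0.0072, lost with median scaling and with the mean of its probes). With Myc off it changed by 0.19 ± 0.12 without a call, and the interaction was -0.72 ± 0.17 (adjusted p = 0.024), a call lost in 8 of 12 fits with an array left out, with median scaling (-0.39) and with the mean of its probes. In siMondoA cells it was lower with Myc on by -0.38 ± 0.12 (adjusted p = 0.034), a call lost with median scaling, with the mean of its probes, when only those 2 groups were fitted and without siMondoA Myc on replicate 1 or 2 or siMondoA Myc off replicate 1 or 3. EEF1AKMT2 was called in no comparison.

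The remaining members were EIF3IP1, a pseudogene, EIF3J-DT, a divergent transcript beside EIF3J, and EIF4E1B, a relative of EIF4E. All 3 were dim, at 4.53 to 5.88, and were called in no comparison with the main normalization. EIF3J-DT changed by -0.60 ± 0.23 (SE, limma adjusted p = 0.056) with knockdown in Myc-off cells, where EIF3J rose. With median scaling that change of EIF3J-DT was -0.66 and was called (limma adjusted p = 0.028).

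The difference between the 2 knockdown changes was called for 5 of 60 factors, 2 higher and 3 lower, beside 5.15% and 3.55% of all genes (8.7% in either direction). With Myc on minus Myc off, EEF1A2 and EIF4G2 had positive values and EIF3J, EEF1AKMT3 and EEF2KMT negative ones. With median scaling 2 factors were called higher and 0 lower, and that scaling moved the median of all genes from 0 to 0.27, so a call here is read relative to that shift. At an unadjusted p below 0.05, with the main normalization, 4 factors were higher and 8 lower. Without single arrays the higher count was 1 to 2 and the lower 1 to 4. The higher count was 1 without siControl Myc on replicate 1 or 2, siControl Myc off replicate 1, 2 or 3 or siMondoA Myc off replicate 1 or 3, and the lower 1 without siControl Myc on replicate 1 or 3, siMondoA Myc on replicate 1 or 2, siControl Myc off replicate 1 or siMondoA Myc off replicate 1 or 3.

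Other genes of the translation pathway, not counted as members, were tested for 40 of 44. The list included release and recycling factors, poly(A)-binding proteins, eIF4E kinases and the eIF2 kinases (EIF2AK symbols). Diphthamide and hypusine enzymes, mitochondrial factors, MTOR, RPTOR, RPS6KB1 and RPS6KB2 were also on it. With knockdown 4 were higher and 3 lower with Myc on, and 15 higher and 8 lower with Myc off, which is 10% and 7.5%, and 37.5% and 20%, of the list. This stands beside 12.4% and 12.5%, and 21.8% and 22%, of all genes. With Myc on against off 9 (22.5%) were higher and 2 (5%) lower in siControl and 6 (15%) higher and 5 (12.5%) lower in siMondoA cells, beside 14.6% and 16.3%, and 14.9% and 15.1%, of all genes. DPH3, needed to make the diphthamide residue of eEF2, rose with knockdown by 1.09 ± 0.14 (SE, limma adjusted p = 0.00016) with Myc on and 1.70 ± 0.14 (adjusted p = 1.7e-06) with Myc off. DOHH, an enzyme of eIF5A hypusination, rose by 0.69 ± 0.19 with Myc on (lost without siControl Myc on replicate 1 or 2 or siMondoA Myc on replicate 3). PAIP1, a partner of poly(A)-binding protein, rose by 0.99 ± 0.21 with Myc off. PDCD4, an inhibitor of eIF4A, and EIF2AK4, the amino acid-sensing eIF2 kinase, fell by -0.61 ± 0.11 and -0.60 ± 0.12 with Myc on, and both lost their calls with median scaling (-0.33 and -0.34). MKNK1, an eIF4E kinase, and PABPC4, a poly(A)-binding protein, fell by -0.97 ± 0.13 and -0.93 ± 0.11 with Myc off.

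With Myc on, DPH5, another diphthamide enzyme, and PAIP1 were higher by 0.73 ± 0.10 and 0.63 ± 0.21 (SE) in siControl cells, and PABPC4 and DPH2 by 0.95 ± 0.11 and 0.55 ± 0.11 in siMondoA cells, all called by limma. The PAIP1 call was lost with median scaling and in 6 of 12 fits with an array left out (any one siControl Myc on array, siMondoA Myc on replicate 2 or siControl Myc off replicate 1 or 3). PPP1R15A, the stress-induced eIF2 phosphatase subunit, was lower with Myc on by -1.03 ± 0.12 with siControl and -0.67 ± 0.12 with siMondoA. EIF2AK3, an eIF2 kinase of the unfolded protein response, was lower by -0.53 ± 0.14 with siControl (lost without siControl Myc on replicate 2 or siControl Myc off replicate 3), and DPH3 by -0.55 ± 0.14 with siMondoA (lost with median scaling). The interaction was called higher for PABPC4 (0.65 ± 0.16) and MKNK1 (0.63 ± 0.18) and lower for 3, the lowest being RPS6KB2 (-0.59 ± 0.16) and DPH5 (-0.51 ± 0.13). None of these interaction calls was stable: with each of the 12 arrays left out in turn PABPC4 lost its call in 8 fits, RPS6KB2 in 10 and MKNK1 and DPH5 in 11 each, so that 0 to 1 were called higher and 0 to 3 lower. RPS6KB2 and DPH5 also lost it with median scaling. Counts again moved with scaling: with median scaling 10 were higher and 0 lower for knockdown with Myc on, 8 higher for knockdown with Myc off, and 1 higher for Myc on with siControl.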

How the data were processed

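Total RNA of Tet21N cells was labelled with biotin and hybridised to Illumina bead arrays, 12 in all and 3 in each of 4 groups taken from the labels. The authors deposited a table of raw probe intensity with a detection score given as a fraction from 0 to 1, and a table of log2 values. The submitters' processing notes name lumi, and the deposited log2 values equal log2 of the quantile-normalized intensity to within 5.3e-14. From the deposited intensity, normexp background correction, quantile normalization and an offset of 16 (neqc in limma 3.58.1, R 4.3.3) were applied, with 1 minus the score as the detection p. Of 47323 probes 30108 had 1 gene symbol in the platform annotation, 8 several and 17197 none, and 10 had no values; 30069 matched RefSeq and 0 symbols changed. The brightest detected probe stood for a gene; 18 factors had more than 1.

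A model with a mean per group was fitted to 12178 genes over all 12 arrays (lmFit and eBayes in limma, 8 residual and 4.552 prior degrees of freedom), and p-values were adjusted by Benjamini-Hochberg over all genes, with 0.05 as the threshold. The median SE of a pairwise log2 change was 0.15, and precision is limited by 3 arrays a group. The EEF1A2 minus EEF1A1 difference was tested by exact permutation of arrays within strata. The factors and lists were chosen with earlier results of these data known. Genes were named by rule: the 6 highest and 6 lowest called per pairwise comparison, 4 and 4 in the interaction, a fixed list of core factors, and of other translation genes the 2 highest and 2 lowest called; other members are given by their calls. Calls with single arrays left out or median scaling were followed for every called factor and other translation gene. Alternatives were no background correction, median scaling, other filters and probe rules, a replicate block, only the groups compared, and each array left out. EEF1E1 and EIF4G3 were not analysed here.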

Additional observations from a re-analysis of the deposited data

Results flagged for a closer look

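The knockdown change differed between the Myc states, by the limma interaction term, for 5 factors. EEF1A2 fell less with Myc on (-0.54) than with Myc off (-1.86), a difference of 1.32 ± 0.20 (SE, adjusted p = 0.002). EIF4G2 differed by 0.68 ± 0.17 (0.41 against -0.27, adjusted p = 0.030). EIF3J differed by -0.78 ± 0.17 (0.43 against 1.22, adjusted p = 0.014), EEF1AKMT3 by -0.72 ± 0.17 (-0.54 against 0.19, adjusted p = 0.024) and EEF2KMT by -0.65 ± 0.18 (0.41 against 1.05, adjusted p = 0.042). Leaving out single arrays ended the call for EIF4G2 in 7 of 12 fits, for EEF1AKMT3 in 8 and for EEF2KMT in 11 (all but siControl Myc off replicate 2), and in 0 for EEF1A2 and EIF3J. Median scaling ended the calls of EIF3J, EEF1AKMT3 and EEF2KMT, and the mean of detected probes those of EEF1AKMT3 and EEF2KMT.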

How the results depend on the processing

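None of the 48 named calls changed sign under any alternative run. This count does not cover the other called factors, such as EIF5. The median log2 change of the factors in the interaction, a value with no test, went from -0.079 to 0.15 with median scaling. With median scaling the factors called were 19 higher and 0 lower (knockdown with Myc on), 12 higher (knockdown with Myc off), 8 higher and 1 lower (Myc with siControl), 1 lower (Myc with siMondoA) and 0 lower (interaction), and the cause was not tested; the share of higher among all calls moved from 49.7% to 79.1%, 49.9% to 37.2%, 47.2% to 25.6%, 49.7% to 76.2% and 59.2% to 94.1%. Without background correction 20 were higher and 1 lower for Myc with siControl and 6 lower in the interaction. The mean of detected probes gave 3 lower for knockdown with Myc on and 1 lower in the interaction, and fitting only the 2 groups gave 7 higher for Myc with siMondoA. Leaving out single arrays gave 3 to 12 higher and 2 to 6 lower for knockdown with Myc on, 14 to 21 and 4 to 7 with Myc off, 10 to 16 and 0 to 1 for Myc with siControl, 7 to 12 and 1 to 3 with siMondoA, and 1 to 2 and 1 to 4 for the interaction. The EEF1A2 minus EEF1A1 difference ranged from 2.049 to 2.187 for Myc state and from -1.286 to -1.147 for siRNA.

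Of 48 named calls 48 remained without background correction, 36 with median scaling, 42 with the mean of probes and 45 with no filter on dim probes. Replicate numbers did not pair the arrays: the 18 same-numbered pairs of deviations correlated at -0.0967 to 0.0835 and 3 of 12 arrays correlated best with their own number. With the replicate block 8 factors were higher and 5 lower for knockdown with Myc on, and 19 and 5 with Myc off, and 45 of the 48 named calls remained; those lost were EIF1AX (knockdown with Myc on), EIF4G1 (Myc with siMondoA) and EEF2KMT (interaction), and the interaction of EIF5A2 was called. EIF4E and the other dim members, near background, are the least precise.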
